A study of Stipitochalara longipes with 7 samples.

Results

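The ascomycete Stipitochalara longipes, called Chalara longipesis in the labels, was grown alone on Scots pine needles, and 200 of its 19765 gene models stood out by a peak at the middle of 3 harvests. Each member was chosen by its reads, after division by a median-of-ratios size factor for the library (scaled reads from here on). Both 5-month libraries had to hold at least 100 scaled reads and at least 2 times the highest value of the other 5 libraries. The rule was met by 206 gene models, and the 200 with the largest ratio of the lower 5-month value to the highest other value were kept. The values at 5 months, and how far they lie above the other harvests, are therefore a description of the choice and not a finding.

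As far as the labels say, the groups differed in the time of harvest alone, which was 2 months (2 libraries), 5 months (2 libraries) or 10 months (3 libraries) after inoculation. All microcosms shared the same start: 85 g of sand and 11 g of dry needles were sterilised with gamma radiation and inoculated with needles that the fungus had colonised for 2 months on agar free of nitrogen. Each then received 20 ml of ammonium chloride at 100 mM and was kept sealed at 20 °C. RNA came from 800 mg of frozen, ground needle material, and libraries from the same harvest are biological replicates per the labels. The protocol names 4 microcosms per species and harvest, so some harvested microcosms have no library among those analysed here. No library without needles or from another food source was analysed here, and no strain or genotype is named.

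Fungi of needle litter live on sugars and other soluble compounds and on the cell wall polymers hemicellulose, cellulose and lignin, which they break down outside the cell with secreted enzymes and then take up through transporters. The easily used compounds tend to be spent before the polymers, and nitrogen is scarce in conifer needles, so a litter fungus changes its food supply as decay goes on. A peak at an intermediate harvest is meant here in scaled reads, that is, relative to the bulk of the gene models and not as a part of all reads. The files give the gene models as JGI (Joint Genome Institute) protein identifiers and do not pair them with names or products, so no member is assigned a function. In RNA from a whole microcosm, fewer cells of a kind and less RNA per cell cannot be told apart.

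Total gene reads per library ran from 20009777 to 52554481, but 8 very abundant gene models, none of them a member, took 30.0% to 93.3% of them. Outside those 8 models the libraries held 2938002 to 16923473 reads. The smallest number belonged to 2-month replicate 2, in which 10139 gene models were detected, against 13405 to 17076 in the other 6 libraries. Its size factor was 0.294, so that 1 read there counts as 3.40 scaled reads, and the limit that a count of 0 allows (3 reads) is 10.2 scaled reads. In the other libraries this limit was 1.60 to 3.83 scaled reads. These limits cover counting error only.

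At the edge of the choice, the members did not stand apart from gene models just outside it. The smallest ratio among members was 2.017, in 514683, followed by 2.021 in 479652, and the largest ratio left out was 2.016, in 502419, followed by 2.015 in 330970. On the side of the level, the members with the lowest 5-month values were 350477 and 561746, with 102 and 103 scaled reads in their lower 5-month library. Just under the limit lay 371699 with 99.7 and 485835 with 99.4 scaled reads, at ratios of 3.16 and 2.64. A further 553 gene models had a ratio past that of the last member but fewer than 100 scaled reads in a 5-month library. In all, 7659 gene models reached 100 in both.

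**Figure D1:**
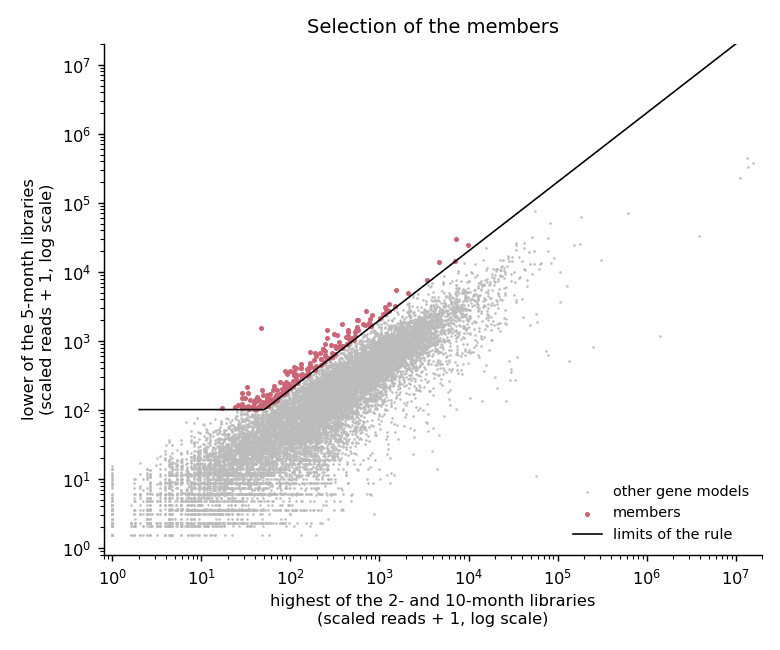
Each point is a gene model with reads in both 5-month libraries, placed by the highest of its 2- and 10-month libraries (x axis, scaled reads + 1, log scale) and the lower of its 5-month libraries (y axis, same unit). The 200 members (red) lie along the upper edge of the cloud, close to the limits of the rule (black line). Farthest above that line for its place on the x axis is 512077, at 45.8 (x axis) and 1519 (y axis) scaled reads.

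Most members lay near the lower limit of the ratio that the rule used. That ratio sets the lower 5-month library against the highest other library and is cut off at 2, so it does not measure the size of the peak. The ratio had a median of 2.52. It lay between 2 and 2.5 in 94 members, between 2.5 and 3 in 48 and between 3 and 4 in 40, and it reached 4 in 18. The largest ratio was 33.2, and the next was 6.72. The library that came closest to the 5-month values was a 10-month one in 159 members (61, 55 and 43 in replicates 1, 2 and 3) and a 2-month one in 41 (22 and 19 in replicates 1 and 2).

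The median member had 48.8 and 3.40 scaled reads (2 months, replicates 1 and 2), 397 and 352 (5 months) and 85.5, 85.5 and 84.1 (10 months, replicates 1 to 3). The 10-month libraries were thus close to each other at the median, while the 2-month libraries were far apart. Of the reads outside the 8 abundant models, the members together took 0.441% and 0.391% (2 months), 3.01% and 3.20% (5 months) and 0.581%, 0.563% and 0.492% (10 months). Both 5-month shares lay above all others. Over all gene reads, the 8 abundant models included, the shares were 0.233% and 0.0261% (2 months), 0.394% and 2.24% (5 months) and 0.383%, 0.273% and 0.142% (10 months). On that basis 5-month replicate 1 was close to 10-month replicate 1. In every library the members ran over several orders of magnitude, at 5 months from 102 to 43853 scaled reads in replicate 1 and from 103 to 35099 in replicate 2.

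**Figure D2:**
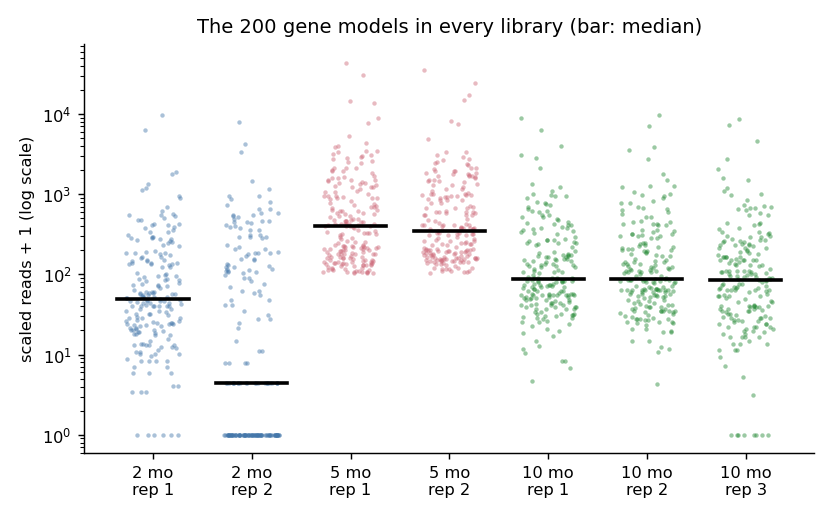
Each point is 1 of the 200 members in the library named on the x axis, at its scaled reads + 1 (y axis, log scale), and the bars are medians. The 5-month medians of 397 and 352 scaled reads stand above the others, and 88 members sit at 0 reads in 2-month replicate 2.

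The member with by far the largest ratio was 512077 (1089 bp). It had 0 and 3.40 scaled reads (2 months, from 0 reads and 1 read), 1519 and 1956 (5 months) and 40.0, 45.8 and 15.8 (10 months). It was nearly absent at 2 months, and low but present in each 10-month library.

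The other members among the 6 with the largest ratios fell into different shapes. Gene model 427902 (1321 bp) had 3.03 and 3.40 scaled reads (2 months), 212 and 214 (5 months) and 25.5, 23.7 and 31.5 (10 months). Gene model 350582 (813 bp) had no read in either 2-month library, 176 and 261 scaled reads at 5 months, and 5.82, 13.9 and 27.3 at 10 months. Both were lower in each 2-month library than in any 10-month library, but with 6 reads and 0 reads in all at 2 months that order rests on little depth.

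Gene model 407511 (3474 bp) had 4.85 and 3.40 scaled reads (2 months), 110 and 107 (5 months) and 16.0, 9.82 and 8.41 (10 months). In 350043 (1344 bp) the values were 12.1 and 0 (2 months), 231 and 175 (5 months) and 9.46, 32.7 and 0 (10 months), so that its 2-month and 10-month libraries overlapped. The most abundant of the 6 beside 512077 was 430451 (1504 bp), with 42.5 and 116 scaled reads (2 months), 1421 and 1489 (5 months) and 163, 235 and 256 (10 months). Its libraries kept the order 5 months over 10 months over 2 months without overlap.

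**Figure D3:**
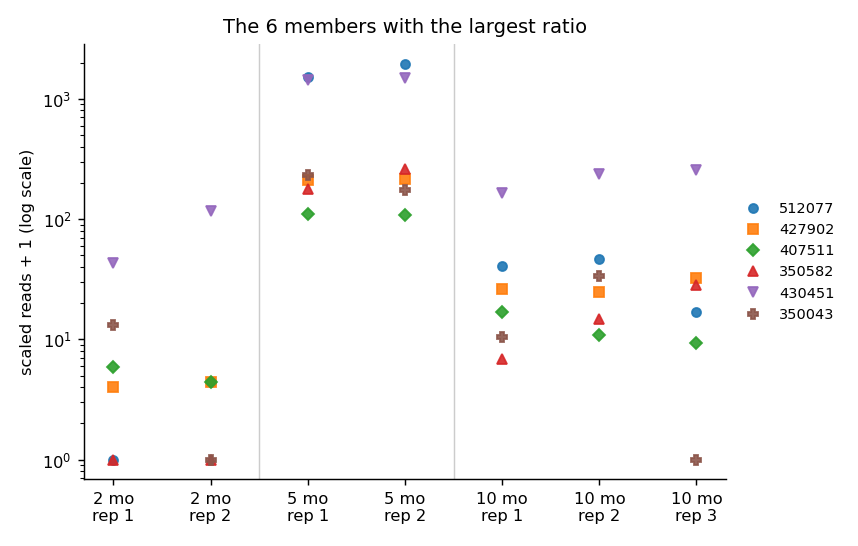
Scaled reads + 1 (y axis, log scale) of the 6 members with the largest ratio in each library (x axis, grouped by harvest), 1 symbol per gene model. All 6 are highest in both 5-month libraries, where 512077 has 1519 and 1956 scaled reads, and symbols at the bottom are libraries with 0 reads.

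By abundance the members were led by 390277 (2339 bp), with 9677 and 7926 scaled reads (2 months), 43853 and 24613.5 (5 months) and 9052, 9749 and 8724 (10 months). Its other libraries lay within a narrow range, with means of 9175 ± 523 at 10 months (SD, n = 3) and 8801 ± 1238 at 2 months (SD, n = 2), so it was already abundant at 2 months. The second was 368469 (1336 bp), with 1334 and 486 scaled reads (2 months), 30330 and 35099 (5 months) and 3982, 3859 and 7312 (10 months). Its ratio of 4.15 was the largest among the 6 most abundant members, and all its 10-month libraries lay above both 2-month libraries.

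Gene model 392368 (1811 bp) followed a similar course at a lower level, with 566 and 945 scaled reads (2 months), 13873 and 17294.5 (5 months) and 3122, 3555 and 4615 (10 months). Gene model 512799 (1140 bp) had 6300.1 and 4211 (2 months), 14380.4 and 14885 (5 months) and 6264, 7041 and 1584 (10 months). It had a ratio of 2.04, close to the limit, and its 10-month replicate 3 lay far under the other 10-month libraries. The remaining pair, 544232 (2307 bp) and 333342 (1281 bp), averaged 7642 ± 218 and 6854 ± 2813 scaled reads at 5 months (SD, n = 2), with ratios of 2.20 and 2.30.

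Per kb of gene model, which allows levels to be compared between genes, the 4 leading members at 5 months were 368469 with a mean of 24487 scaled reads per kb, 390277 with 14636, 512799 with 12836 and 430801 (639 bp) with 10668. Ranks of reads per kb within a library do not depend on how libraries are scaled to each other. Among 18407 gene models, 368469 ranked 1471 and 3216 (2 months), 24 and 14 (5 months) and 553, 580 and 306 (10 months). Gene model 430801 ranked 3945 and 5261 (2 months), 93 and 35 (5 months) and 834, 720 and 696 (10 months), so both were in the top 100 of each 5-month library and of no other.

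The ranks of the whole set gave the same picture. Of the 200 members, 191 ranked higher per kb in both 5-month libraries than in any other library, which held for 11.4% of all 14753 gene models tested and for 16.6% of those with at least 100 scaled reads in both 5-month libraries. Since the members were chosen for high 5-month values, this is a description with no test. The median rank was 9296.5 and 9878.5 (2 months), 4724 and 4943.5 (5 months) and 8413, 8252 and 8419 (10 months). Members among the top 500 numbered 2 and 2 at 2 months, 13 and 11 at 5 months, and 2 in each 10-month library. The 2 were 390277 and 512799 in each of these 2- and 10-month libraries other than 10-month replicate 3, where they were 368469 and 390277.

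The 5-month libraries gave similar values for most members. The fold between them had a median of 1.21, beside 1.25 for all gene models with at least 100 scaled reads in both, and 7 members differed by more than 2-fold (3.5%, beside 4.47%). Replicate 1 was the higher one in 108 members and replicate 2 in 92. The widest gaps toward replicate 2 were in 554813 (827 bp), with 111 and 471 scaled reads in replicates 1 and 2, and in 551967 (1387 bp), with 667 and 1815. Toward replicate 1 they were in 475504 (2529 bp), with 1001 and 378, and in 540670 (3366 bp), with 1299.6 and 584. For these 4 members the size of the peak depends on the replicate, although the lower library still met the rule.

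At 2 months many members were at or near the limit of detection. In replicate 2, 88 members had 0 reads and 29 had 1 to 3 reads, whereas in replicate 1, which was sequenced more deeply outside the 8 abundant models, 6 members had 0 reads. Over all gene models tested, 35.1% had 0 reads in replicate 2, and over those with at least 100 scaled reads in both 5-month libraries 9.53% did. The members' share was 44.0%. The rule itself asks for low 2-month values, and the part of that library's depth in this share was not tested. More than 3 reads in all 7 libraries were counted for 81 members, beside 8149 of the 14753 gene models tested. Of the 7659 gene models with at least 100 scaled reads in both 5-month libraries, 6690 had more than 3 reads in every library.

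No read at all was counted at 2 months for 5 members, which were 350582, 433075, 471897, 371745 and 549536. With 512077 there were 6 that had at most 3 reads in each 2-month library. Of the 14753 gene models tested, 642 had no read at 2 months and 943 at most 3 in each library. Of the 7659 with at least 100 scaled reads in both 5-month libraries, these numbers were 8 and 13. Gene model 471897 (2802 bp) reached 156 and 149 scaled reads at 5 months, against 29.8, 19.6 and 15.8 at 10 months. In 371745 (3055 bp) the values were 147 and 182 at 5 months and 27.6, 54.0 and 25.2 at 10 months. In 549536 (411 bp) they were 120.1 and 219 at 5 months and 35.6, 11.5 and 52.6 at 10 months. All 5 were thus detected in every 5- and 10-month library, and 549536 and 371745 came closest to the limit of the rule, with 52.6 scaled reads at 10 months against 120.1 at 5 months, and 54.0 against 147.

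At 10 months every member was detected in replicates 1 and 2, at no less than 3.64 and 3.27 scaled reads. In replicate 3, 8 members (4%) had 0 reads, beside 13.4% of all gene models tested. Among gene models with at least 100 scaled reads in both 5-month libraries, 0.483% had 0 reads there. Replicate 3 held the lowest of the 10-month values in 50.5% of the members, beside 44.8% of all gene models tested, and the highest in 26.5%, beside 35.2%. For the gene models with at least 100 scaled reads in both 5-month libraries these shares were 40.7% and 38.5%. The fold between the highest and the lowest 10-month library, with a lowest value under 1 scaled read set to 1, had a median of 1.68 for the members. It was 1.89 for all gene models tested and 1.53 for those with at least 100 scaled reads in both 5-month libraries.

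The rule did not set 10 against 2 months, because it sets 5 months against the other harvests together. It did cap every 2- and 10-month value of the members, a limit that the other gene models tested did not have to meet. The members' shares below are therefore a description beside gene models that were not chosen in the same way. All 200 members passed the filter on low counts, for which high 5-month counts suffice. The fit also takes its estimate of the spread from all 3 harvests, the 5-month libraries included. Against 2 months, 9 of the 200 members rose and none fell in edgeR's quasi-likelihood test (Benjamini-Hochberg adjusted p under 0.05 over 14753 gene models). Of all gene models tested, 1.64% rose and 0.705% fell (2.35% together), and the 9 members are 4.5% of the set. Among the 7659 gene models with at least 100 scaled reads in both 5-month libraries, 2.85% rose. The median log2 fold change of the members was 1.06, and 173 of them had a value above 0, whereas the median of all gene models tested was 0.20 and 56.1% lay above 0. Setting gene models without any read at one harvest to the bound that 3 reads over that harvest allow left the members' median at 1.06 and put that of all gene models at 0.19. At an unadjusted p under 0.05 by edgeR, 45 of the 200 members passed, as did 2856 of the 14753 gene models tested, a similar share.

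The rise with the smallest adjusted p was in 430801 (639 bp), with 1232, 1486 and 1520.5 scaled reads in the 10-month libraries, against 179 and 112 in the 2-month libraries. Its 5-month libraries had 5385 and 8248. The groups were far apart, with a log2 fold change of 3.24 ± 0.40 (SE) and an adjusted p of 0.0128 by edgeR. Without any 1 of the 7 libraries this call still held, at log2 fold changes from 2.92 to 3.69.

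Gene model 470587 (1881 bp) had 105, 103 and 130 scaled reads in the 10-month libraries, against 2.43 and 0 in the 2-month libraries (log2 fold change 5.82 ± 0.85 SE and adjusted p = 0.0152 by edgeR). Gene model 559428 (1944 bp) had 164, 94.1 and 127 scaled reads at 10 months, against 2.43 and 0 at 2 months (log2 fold change 6.01 ± 0.89 SE and adjusted p = 0.0152 by edgeR). Both had 4 reads in all at 2 months, so the sizes of these rises rest on very few reads, and without 2-month replicate 1 the log2 fold changes were 10.01 and 10.20. Neither call held without 5-month replicate 2 (5.88 and 6.05) or without 10-month replicate 2 (5.86 and 6.18), and that of 559428 also ended without 5-month replicate 1 (6.08).

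In 433075 (1211 bp) the 10-month libraries had 43.6, 27.0 and 35.8 scaled reads, against 0 reads in both 2-month libraries. That is at least 23.2-fold higher over the group, with the limit of 3 reads over both 2-month libraries (edgeR adjusted p = 0.0465), and the call ended without any 1 of the 5- or 10-month libraries (fitted log2 fold changes of 8.20 to 8.53 there, which depend on the prior count). For 512077, with 1 read in all at 2 months, reads pooled over each harvest gave a ratio of 10 to 2 months of 69.0, with 12.2 to 2746 as the exact 95% interval for counting error (edgeR adjusted p = 0.0337). That call held without 2-month replicate 2 or without 10-month replicate 3, but ended without each of the other 5 libraries (fitted log2 fold changes of 3.33 to 5.54). In these libraries the member with the largest ratio thus had more scaled reads at 10 than at 2 months, at a level far under that at 5 months. With 1 read at 2 months and a call that depended on single libraries, a rise is not settled.

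The other 4 rises, which fell outside the rule for named gene models or were named for another reason, were in 392368, 196566, 337946 and 551967. Gene model 392368, among the most abundant members, had a log2 fold change of 2.32 ± 0.40 (SE) and an adjusted p of 0.0225 by edgeR, and 196566 (1766 bp), with 232, 213 and 304 scaled reads at 10 months, against 43.1 and 27.2 at 2 months, one of 2.75 ± 0.44 (SE) with an adjusted p of 0.0184 by edgeR. Gene model 337946 (1233 bp) had 173, 190 and 162 scaled reads at 10 months, against 10.9 and 0 at 2 months (log2 fold change 4.52 ± 0.81 SE and adjusted p = 0.0256 by edgeR; 10.64 without 2-month replicate 1). In 551967 they were 168, 86.7 and 213 at 10 months, against 18.8 and 3.40 at 2 months (log2 fold change 3.50 ± 0.76 SE and adjusted p = 0.0466 by edgeR), and 86.7% of its reads were unique. Counted on unique reads, 551967 was not called (log2 fold change 3.43). In all 4, every 10-month library lay above both 2-month libraries. None of these 4 calls held without 5-month replicate 2 (log2 fold changes of 2.32, 2.77, 4.59 and 3.60) or without 10-month replicate 2 (2.31, 2.81, 4.45 and 3.76). Calls also ended for 392368 without 10-month replicates 1 (2.44) or 3 (2.15), and for 337946 without 5-month replicate 1 (4.60) or 10-month replicates 1 (4.55) or 3 (4.58). That of 551967 ended without any library other than 2-month replicate 1 (2.97 to 3.76).

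With all libraries, no member was called lower at 10 than at 2 months. Without 2-month replicate 1, 485612 (1422 bp) was called lower (log2 fold change -1.80 ± 0.42 SE and adjusted p = 0.0135 by edgeR), and without both 2-month replicate 2 and 10-month replicate 3, 486141 was (-1.47 ± 0.36 SE and adjusted p = 0.0182 by edgeR). In the fit of all libraries, the smallest p-values in that direction were those of 562069 (1906 bp) and 400713 (3490 bp), and neither passed. Gene model 562069 had 149, 194 and 128 scaled reads in the 10-month libraries, against 260 and 285 in the 2-month libraries (log2 fold change -0.80 ± 0.39 SE and adjusted p = 0.293 by edgeR). In 400713 the values were 274, 245 and 149 at 10 months, against 235 and 459 at 2 months, which overlap (log2 fold change -0.63 ± 0.42 SE and adjusted p = 0.437 by edgeR).

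Without a test, the mean at 10 months was at least 2 times the mean at 2 months in 107 members (53.5%, beside 30.8% of all gene models tested), and the reverse held in 1 (0.5%, beside 17.9%), which was 485612. In the remaining 92 the means lay within 2-fold of each other. Every 10-month library lay above both 2-month libraries in 92 members (46.0% of the set), which held for 24.6% of all gene models tested, and every one lay below in 3 members (562069, 563134 and 395812), beside 14% of the gene models tested. In the other 105 members the libraries of the 2 harvests overlapped.

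**Figure D4:**
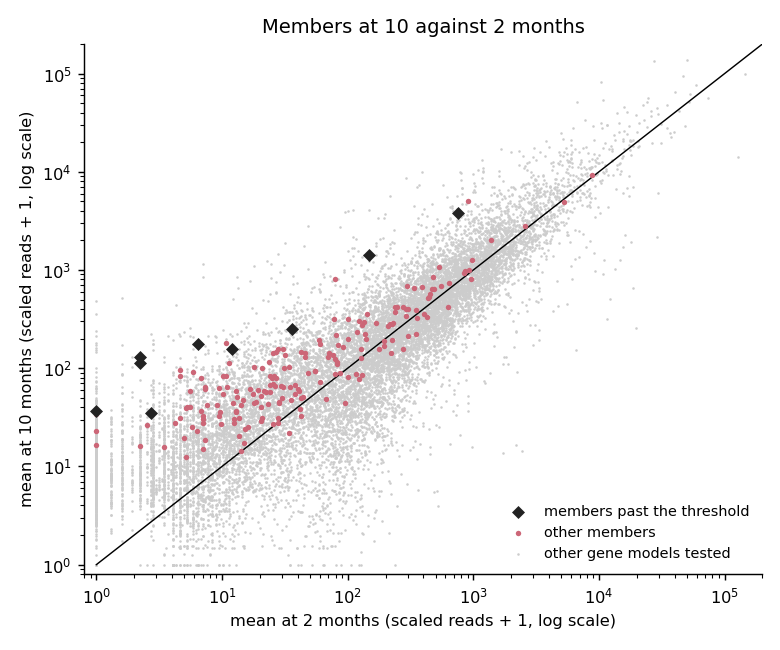
Mean scaled reads + 1 at 10 months (y axis) against 2 months (x axis), both on log scales, for the 200 members and all other gene models tested; the line marks equal means. Most members lie on or above the line, and the 9 that passed the threshold (black diamonds) lie well above it.

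The count of 9 depended on single libraries. Without 2-month replicate 1 the members called numbered 108, of which 107 rose and 1 fell, and without replicate 2 all 22 called rose, in fits that take the lone 2-month library to vary as the other harvests do, and where 31.6% and 4.6% of all gene models tested were called. Leaving out 10-month replicate 1, 2 or 3 gave 4, 1 or 5, where 0.706%, 0.223% and 1.03% of all gene models tested were called. Without 5-month replicate 1 or 2, which leaves 1 library at that harvest, the members' median log2 fold change was 1.07. Of the original 9 calls, 8 and 8 were kept without 2-month replicates 1 and 2, and no more than 5 without any other library. The members' median log2 fold change stayed above that of all gene models tested in each of these fits: it was 4.15 against 1.31 without 2-month replicate 1, and 0.65 against 0.07 without replicate 2. Scaling by library size alone gave 0 calls. At an unadjusted p under 0.05 by edgeR, 14 members passed there, beside 373 of the 14753 gene models tested. DESeq2 gave 40 calls, with 9.71% of all gene models called. With only the 2 harvests compared, edgeR called 1 member, beside 0.234% of all gene models tested.

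The comparisons of 5 months with another harvest, on which the rule chose the members, are given for completeness. In the same fit 32 of the 200 members were called higher at 5 than at 2 months, as were 0.624% of all gene models tested. At 10 against 5 months 21 of them were called lower, as were 0.21% of all gene models tested. Nothing is read from these counts, since the members were chosen on them. The members' median log2 fold change was 2.86 for 5 against 2 months and -1.87 for 10 against 5 months.

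The members were longer than gene models in general. Lengths implied by the deposited RPKM values had a median of 1754.5 bp, with quartiles of 1312.5 and 2283 bp, whereas all gene models tested had a median of 1424 bp. Among the 7659 gene models that reached this number in both 5-month libraries the median was 1582 bp. The part of the level minimum in the members' length was not tested. Gene models under 1000 bp made up 9.5% of the members, 19.8% of those 7659 and 26.6% of all tested. The shortest members were 473652 (363 bp), with 134 and 138 scaled reads at 5 months, and 425536 (382 bp), and the longest were 507079 (5995 bp) and 363028 (5791 bp).

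Most members had reads that belonged to them alone. All reads were unique in 178 members (89.0%, beside 86.6% of all gene models tested). Fewer than 95% were unique in 3 members: 61.9% in 425536, 86.2% in 426238 (1250 bp) and 86.7% in 551967. Since part of their reads was not unique, the values of these 3 are uncertain. Of them, 426238 was the most abundant, with 1179 and 727 scaled reads (2 months), 2860 and 2886 (5 months) and 699.8, 1065 and 669.8 (10 months).

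Whether a gene model counted as peaking at 5 months depended on how the libraries were scaled. With TMM-scaled library sizes 137 gene models met the rule, all of them members. With the sum of all gene reads in each library as the scale, 12 met it, of which 8 were members. Of that sum the 8 abundant models held 86.9% of the reads in 5-month replicate 1 and 30.0% in replicate 2. With the reads outside those 8 models as the scale, 537 gene models met the rule and all 200 members were among them. Unique reads gave 207, with 199 of the members.

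**Figure D5:**
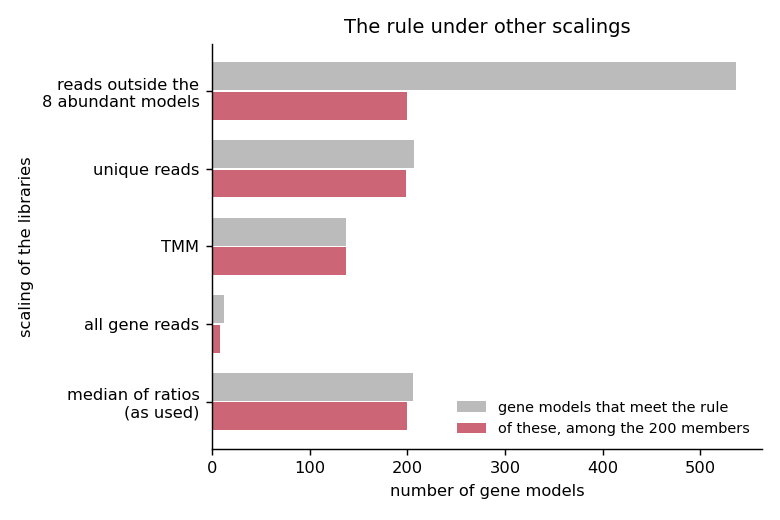
Number of gene models that meet the rule (grey) and how many of these are among the 200 members (red) for 5 ways to scale the libraries (y axis). The members are all kept when libraries are scaled to the reads outside the 8 abundant models, 137 are kept with TMM, and 8 are kept when the sum of all gene reads is used.

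With a library left out the rule has fewer values to meet, so more gene models meet it apart from shifts in the size factors. Of the 200 members, 200 still met it without 5-month replicate 1 and 189 without replicate 2. Without 2-month replicate 2, 168 of the members met it, and without both that library and 10-month replicate 3, 157 did.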

How the data were processed

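Per the file headers, the authors deposited for each of 7 libraries a table of unique gene reads (counts), total gene reads (counts) and RPKM values per gene model. Aligner, counter, genome build, annotation and strand handling were not given in the sources used here. The deposited RPKM values served only to recover gene model lengths, which differed between libraries by at most 0.0045 bp.

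Scaled reads are total gene reads over a size factor, the median over the 8859 gene models with reads in all libraries of reads over their geometric mean. Tests used edgeR 4.0.16 in R 4.3.3: filterByExpr (14753 gene models, all 200 members among them), TMM, 1 quasi-likelihood fit of 3 harvests without a replicate term, and Benjamini-Hochberg adjustment over all gene models tested. Standard errors are the log2 fold change over the square root of F. DESeq2 1.42.0 and limma 3.58.1 served as alternatives. Simulated data with 200 changed gene models were run through the same fit. They gave each gene model the same spread in all libraries, which these libraries need not share, and no result here rests on them. Replicate numbers are not said to pair microcosms, and p-values measure only the spread between these libraries.

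Gene models were named by rule: the 6 largest ratios, the 6 most abundant and the 4 most abundant per kb, the largest changes between 10 and 2 months, the edges of the choice, and the extremes of length, unique reads and 5-month replicate ratio. Those outside the rule are 337946, 196566, 485612, 486141, 563134, 395812, 471897, 371745 and 549536, chosen after their values were seen. The members and lists were chosen with earlier results of these data known.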

Additional observations from a re-analysis of the deposited data

How the results depend on the processing

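Members called for 10 against 2, 5 against 2 and 10 against 5 months (9, 32 and 21 as reported) numbered 0, 0 and 0 with library size alone. At an unadjusted p under 0.05, edgeR there passed 14, 69 and 9 members, beside 373, 584 and 85 of all 14753 gene models tested. In the same order, members called numbered 22, 78 and 44 with no low-count filter, 40, 145 and 94 with DESeq2, and 1, 19 and 152 with only the 2 harvests compared. Without 2-month replicate 2 and 10-month replicate 3 they numbered 55, 176 and 193, with 1 member lower at 10 than at 2 months; there the lone 2-month library is taken to vary as the other harvests do and 14.3% of all gene models tested were called for 10 against 2 months. By limma-voom with quality weights they were 3 (10 against 2 months) and 187 (10 against 5 months), beside 2.39% and 19.6% of all gene models. Calls over all gene models, in the same order of comparisons, were 5.04%, 3.17% and 3.79% with no low-count filter. They were 9.71%, 6.8% and 4.56% with DESeq2, and 0.234%, 0.681% and 10.6% with only the 2 harvests compared. Without 2-month replicate 2 and 10-month replicate 3, calls over all gene models were more frequent than with all libraries in each of these comparisons. The members' high counts in that fit are therefore not particular to the members, and nothing is read from them. The replicate block gave 1, 18 and 2, beside 0.542%, 0.766% and 0.793% of all gene models. The numbers were not taken as pairs because they are not said to pair microcosms. Same-numbered libraries deviated from their harvest means with correlations from -0.22 to 0.04. With 2 libraries at a harvest the deviations mirror each other, so these correlations cannot settle whether the numbers pair microcosms. Leaving out 1 library gave 1 to 108, 0 to 165 and 0 to 146.

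The highest counts of members called with 1 library left out came from fits with a lone 2-month library. In those fits calls over all gene models were also more frequent than with all libraries, so nothing is read from these counts. The members' median log2 fold change for 10 against 2 months ran from 0.65 to 4.15 when 1 library was left out and stayed above 0 in every alternative. With library size alone it was 1.33, while the median of all gene models moved from 0.20 to 0.60. Of the named changes, that of 400713 turned to 0.40 with library size alone and to 0.11 without both libraries in doubt. The call of 430801 held in 16 of 17 alternatives, and that of 551967 in 6. With the replicate block, and with only the 2 harvests compared, 430801 was the 1 member called for 10 against 2 months.

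The rule was met by 206 gene models as reported, by 137 with TMM, 12 with all gene reads, 537 with reads outside the 8 abundant models, 465 and 18 at ratios of 1.5 and 4, 315 and 128 at levels of 50 and 200, 340 without both libraries in doubt, and 237 to 404 without 1 library. With fewer libraries the rule has fewer values to meet; the causes of the other shifts were not tested. Depth outside the 8 abundant models limits low values in 2-month replicate 2.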
